A study of Mus musculus with 8 samples.

Results

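The cyclin-dependent kinase (CDK) inhibitors of the INK4 and CIP families were followed in AtT-20 cells, a mouse pituitary tumour line of the corticotrope type that makes the hormone precursor POMC, after EGF. All loci whose symbol was Cdkn1 or Cdkn2 with a letter a to d were taken, which gave 7 of the 12193 loci measured. These were the INK4 genes Cdkn2a, Cdkn2b, Cdkn2c and Cdkn2d, and the CIP/KIP genes Cdkn1a, Cdkn1b and Cdkn1c. All 7 had values and passed the filter on low values. Over all libraries, EGF was followed by a rise of Cdkn2b that far exceeded that of any other member. Against water libraries of the same EGFR line, Cdkn2a and Cdkn1a rose less, and Cdkn2c and Cdkn2d fell a little. Cdkn1b and Cdkn1c did not pass the test. The EGF libraries of Cdkn1a and Cdkn2c, and those of Cdkn2d at 18 h, overlapped water libraries of the other line, Neo. Both falls at 18 h, and that of Cdkn2c at 3 h, were lost when libraries were rescaled to a common sum.

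As background, cyclin D with CDK4 or CDK6 and cyclin E with CDK2 drive cells from G1 into S phase by phosphorylating the retinoblastoma protein and its relatives, which releases E2F factors to switch on replication genes. INK4 proteins bind CDK4 and CDK6 and keep cyclin D off them. CIP/KIP proteins bind whole cyclin-CDK complexes, block those of CDK2, and also help to assemble cyclin D with CDK4. In the mouse pituitary, loss of Cdkn1b or Cdkn2c leads to tumours of the intermediate lobe, and loss of both makes these appear sooner.

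Gene expression was measured by RNA sequencing as FPKM, a fragment count scaled to transcript length and library size, in 4 groups of 2 libraries. The EGFR line was given EGF for 3 h, EGF for 18 h, or water, and the Neo line was given water. The labels give 3 h for both water groups, so no water sample of 18 h and no Neo sample with EGF was analysed here, and both EGF times were set against the same 2 EGFR water libraries. All groups share the AtT-20 background and culture in medium with serum. The sources used here do not give the EGF dose, the vector and species of the EGFR transgene, or whether a line is 1 clone or a pool. Nor do they tell whether the replicates came from different cultures, so the p-values cover only the spread between libraries, which may be technical.

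Egfr itself, the gene that separates the lines by label, was at 26.7 ± 1.13 FPKM in EGFR water libraries and 0.147 ± 0.114 FPKM in Neo water libraries (SD, n = 2 each). Of 6 corticotrope markers, 5 had values and summed to 7443 to 9441 FPKM per library, nearly all of it Pomc. None of 22 markers of other pituitary lineages, fibroblasts, endothelium or blood had a value in the tables used. A missing value does not show absence of expression, so the presence of other cells was not tested. Depth was not given. From the smallest steps of FPKM it was roughly estimated, on 7 to 14 genes per library, at 57.8 to 67.0 M fragments per library. By that estimate Cdkn2a, the weakest member, rested on 124 to 247 fragments per library, for a counting error of up to 9.0%, and Cdkn2b on 368 to 3878 fragments. The summed FPKM was highest in Neo water 1, where small RNAs made up 39.0% of it, against 29.1 to 33.2% in the other 7 libraries.

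In water, the level of the 7 genes had the same order in the EGFR line and in the Neo line. Cdkn2c was highest at 120 ± 2.85 FPKM in EGFR water and 107 ± 0.955 FPKM in Neo water (SD, n = 2 each), followed by Cdkn2d, Cdkn1b, Cdkn1a, Cdkn1c, Cdkn2b and Cdkn2a. No neighbours in that order overlapped between libraries. After 3 h of EGF, Cdkn2b had moved from the sixth place to the fourth, above Cdkn1a and Cdkn1c. After 18 h it stood at 43.3 ± 1.78 FPKM, beside Cdkn2d at 44.2 ± 0.146 FPKM, from which its libraries were not separate.

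**Figure D1:**
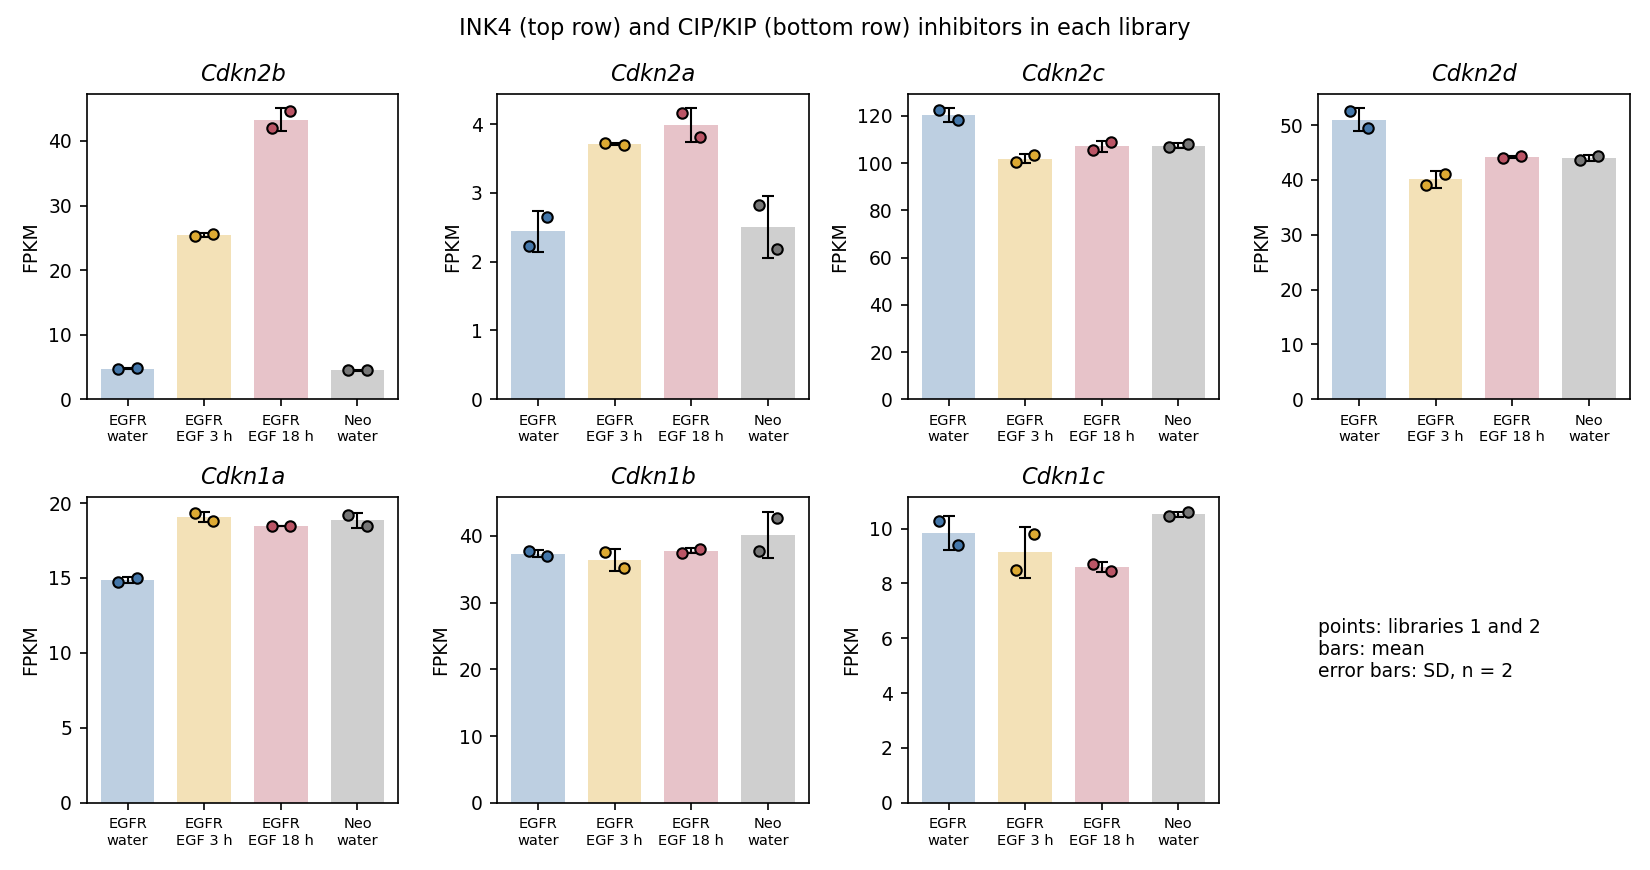
FPKM (vertical axes, starting at 0 and scaled per gene) of each inhibitor in each library, with INK4 genes in the top row and CIP/KIP genes in the bottom row. Points are the 2 libraries of each group, drawn from left to right as EGFR water, the EGF times and Neo water, and bars are their means. Cdkn2b climbs to 43.3 FPKM at 18 h of EGF, while Cdkn1b stays between 35.2 and 42.6 FPKM.

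Cdkn2b encodes p15INK4b, an INK4 protein best known as the one that TGF-beta induces through SMAD factors and that MYC with MIZ1 represses. The gene lies on chromosome 4 (ENSMUSG00000073802, chr4:89306289-89311032, minus strand, mm10) and has 1 annotated transcript. It is the neighbour of Cdkn2a, whose locus makes both p16INK4a and the unrelated protein p19ARF from separate first exons (ENSMUSG00000044303, chr4:89274471-89294653, minus strand, mm10). A gene-level value cannot tell those 2 products apart. The CIP/KIP gene that also rose after EGF was Cdkn1a, which encodes p21, the main CDK inhibitor downstream of p53 (ENSMUSG00000023067, chr17:29090979-29100722, plus strand, mm10). The 250 bases before the RefSeq starts of these 3 genes (GRCm38.p6, 5′ to 3′ on the gene's strand) are shown because each of the 3 rose after EGF, with capitals on motif matches.
Cdkn2b promoter, chr4:89311033-89311282, minus strand: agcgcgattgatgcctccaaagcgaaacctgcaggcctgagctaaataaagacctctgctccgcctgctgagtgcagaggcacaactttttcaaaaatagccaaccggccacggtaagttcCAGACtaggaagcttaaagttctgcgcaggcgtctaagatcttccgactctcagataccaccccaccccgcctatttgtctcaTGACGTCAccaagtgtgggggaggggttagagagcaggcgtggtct
Cdkn2a promoter before the upstream start, chr4:89294620-89294869, minus strand: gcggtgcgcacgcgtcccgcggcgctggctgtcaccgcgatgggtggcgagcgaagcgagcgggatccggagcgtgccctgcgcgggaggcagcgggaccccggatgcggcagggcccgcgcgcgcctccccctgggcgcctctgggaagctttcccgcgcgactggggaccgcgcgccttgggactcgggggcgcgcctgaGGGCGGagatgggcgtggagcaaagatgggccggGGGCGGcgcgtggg
Cdkn2a promoter before the downstream start, chr4:89282193-89282442, minus strand: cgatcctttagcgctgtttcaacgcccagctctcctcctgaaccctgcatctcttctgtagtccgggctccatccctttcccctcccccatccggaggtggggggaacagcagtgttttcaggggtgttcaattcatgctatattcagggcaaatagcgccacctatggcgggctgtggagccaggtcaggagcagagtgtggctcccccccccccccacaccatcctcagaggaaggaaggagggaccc
Cdkn1a promoter before the upstream start, chr17:29090729-29090978, plus strand: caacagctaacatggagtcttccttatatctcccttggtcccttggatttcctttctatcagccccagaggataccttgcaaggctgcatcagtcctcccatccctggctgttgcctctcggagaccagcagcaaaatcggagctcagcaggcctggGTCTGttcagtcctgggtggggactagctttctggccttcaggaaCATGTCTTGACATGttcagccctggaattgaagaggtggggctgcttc
Cdkn1a promoter before the downstream start, chr17:29093519-29093768, plus strand: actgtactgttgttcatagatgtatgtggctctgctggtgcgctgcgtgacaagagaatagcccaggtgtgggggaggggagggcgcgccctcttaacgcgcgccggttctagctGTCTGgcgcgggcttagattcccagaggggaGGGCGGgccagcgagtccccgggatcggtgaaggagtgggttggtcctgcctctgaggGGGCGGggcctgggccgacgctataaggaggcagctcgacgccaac

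The 8 motifs searched, on both strands, were the SMAD box CAGAC, the STAT site TTCNNNGAA, the GC box GGGCGG of SP1, the E-box CACGTG of MYC, the ETS core CCGGAA, the AP-1 site TGANTCA, the cAMP response element TGACGTCA, and a pair of CATG cores 6 bases apart, as in p53 sites. The last 2 were added after the sequences had been seen. The SMAD box and its reverse complement (GTCTG) stand in the Cdkn2b window 129 bases before the start and in the Cdkn1a windows 93 and 135 bases before their starts, and 42.2% of all 32851 promoter windows of this length hold one. The windows of Cdkn2c and Cdkn2d, which fell, hold the SMAD box too, 188 bases and 8 and 44 bases before their starts. The Cdkn2b window has a cAMP response element 46 bases before the start, found in 1.55% of windows. The upstream Cdkn1a window has the paired p53 core 48 bases before the start, found in 0.490% of windows. GC boxes, in 32.7% of windows, occur at 2 places in the downstream Cdkn1a window and 2 in the upstream Cdkn2a window. The downstream Cdkn2a window has no match. Cdkn2c and Cdkn2d, which fell, have a window with GC boxes at 3 places each, and the Cdkn1b window has 1. No window of the 6 members with a RefSeq entry matched the STAT site (in 7.02% of windows), the E-box (6.02%), the ETS core (12.03%) or the AP-1 site (6.75%). Cdkn1c had no matched entry.

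Cdkn2b had 25.2 and 25.6 FPKM after 3 h of EGF and 42.1 and 44.6 FPKM after 18 h, against 4.66 and 4.77 FPKM in EGFR water. Neo water libraries had 4.47 and 4.56 FPKM. All 4 EGF libraries lay far above all 4 water libraries, and the 2 EGF times did not overlap. The mean was 5.40 times that of EGFR water at 3 h (25.4 ± 0.282 against 4.71 ± 0.0793 FPKM, SD, n = 2 each) and 9.19 times at 18 h. Fold changes tested here are differences of log2(FPKM + 1), which understate the change of low genes. On that scale Cdkn2b rose by 2.21 at 3 h (95% interval 2.12 to 2.30, adjusted p = 2.67e-07 by limma) and by 2.95 at 18 h (2.86 to 3.05, adjusted p = 4.85e-08). That was the ninth highest fold change of 10874 genes tested at each time. From 3 h to 18 h the gene gained a further 0.74 (SE 0.0397, adjusted p = 1.09e-04), an 18 h mean 1.70 times the 3 h mean. EGFR water and Neo water differed by 0.05 (95% interval -0.04 to 0.14, adjusted p = 0.462). The rise at each time, and from 3 h to 18 h, held under every alternative tried, each library left out included.

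Against this, the change of Cdkn2a was smaller, its mean being 1.52 times that of EGFR water at 3 h and 1.64 times at 18 h. It had 3.72 and 3.70 FPKM after 3 h of EGF and 4.16 and 3.81 FPKM after 18 h, against 2.23 and 2.65 FPKM in EGFR water. The Neo water libraries, at 2.83 and 2.18 FPKM, bracketed EGFR water, and all EGF libraries lay above all water libraries. Cdkn2a rose by 0.46 at 3 h (SE 0.101, adjusted p = 0.0151) and by 0.54 at 18 h (SE 0.101, adjusted p = 0.00700), and 18 h differed from 3 h by 0.08 (adjusted p = 0.564). The 3 h call was lost without EGFR water 1 (0.37, adjusted p = 0.0846) and without EGF 3 h 1 (0.45, adjusted p = 0.0728). The 18 h call held in each case. Cdkn2b stood at 6.86 ± 0.107 times the FPKM of Cdkn2a at 3 h and 10.9 ± 1.12 times at 18 h, against 1.94 ± 0.206 times in EGFR water (SD, n = 2 each).

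Cdkn2c encodes p18INK4c (ENSMUSG00000028551, chr4:109660876-109667189, minus strand, mm10), the INK4 gene best known as a pituitary tumour suppressor in mice. It is far from the Cdkn2a and Cdkn2b locus on the same chromosome. It had 100.5 and 103 FPKM after 3 h of EGF and 105 and 109 FPKM after 18 h, against 122 and 118 FPKM in EGFR water. Neo water had 107 and 108 FPKM, within the range of the EGF libraries, so the 2 EGFR water libraries were the highest of the 8. Cdkn2c fell by 0.24 at 3 h (SE 0.0337, adjusted p = 0.00292) and by 0.17 at 18 h (adjusted p = 0.00918), and was higher in EGFR water than in Neo water by 0.16 (adjusted p = 0.0387). These 3 comparisons share the EGFR water libraries, whose level enters each of them. The difference between the lines was lost without any 1 library of either water group or of EGF 18 h (adjusted p = 0.0659 to 0.211). The 18 h call was lost without EGFR water 1 (-0.14, adjusted p = 0.0778) and without EGF 18 h 1 (-0.15, adjusted p = 0.0699). After rescaling to a common FPKM sum, the calls at 3 h (-0.16, adjusted p = 0.132) and 18 h (-0.13, adjusted p = 0.204) were lost as well.

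Cdkn2d encodes p19INK4d, an INK4 protein whose level changes over the cell cycle (ENSMUSG00000096472, chr9:21288463-21291209, minus strand, mm10). It had 39.0 and 41.1 FPKM after 3 h of EGF and 44.1 and 44.3 FPKM after 18 h, against 52.5 and 49.5 FPKM in EGFR water. Neo water had 43.6 and 44.4 FPKM, so EGFR water was again the highest group, and its libraries overlapped no other. Cdkn2d fell by 0.34 at 3 h (SE 0.0403, adjusted p = 0.00154) and by 0.20 at 18 h (adjusted p = 0.00897). It was higher at 18 h than at 3 h by 0.14 (adjusted p = 0.0362) and higher in EGFR water than in Neo water by 0.21 (adjusted p = 0.0324). Only the 3 h call held with each library left out and under every scaling: the 18 h call was lost without EGFR water 1 (-0.16, adjusted p = 0.0675), without EGF 18 h 1 (-0.20, adjusted p = 0.0529) and with a common FPKM sum (-0.17, adjusted p = 0.127). The difference between the lines was lost without any 1 library of either water group or of EGF 18 h (adjusted p = 0.0629 to 0.183). The difference between the times was lost without EGF 3 h 1 (0.10, adjusted p = 0.152), EGF 18 h 1 (0.14, adjusted p = 0.123) or EGF 18 h 2 (0.13, adjusted p = 0.132).

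Among the CIP/KIP genes, Cdkn1a had 19.3 and 18.8 FPKM after 3 h of EGF and 18.5 in each library after 18 h, against 14.7 and 15.0 FPKM in EGFR water. Neo water libraries had 19.2 and 18.5 FPKM. The 2 EGFR water libraries were thus the low ones, below all other 6, and the EGF libraries overlapped those of Neo water. Cdkn1a rose by 0.34 at 3 h (SE 0.0344, adjusted p = 8.19e-04) and by 0.30 at 18 h (SE 0.0344, adjusted p = 8.64e-04), or 1.28 and 1.24 times the EGFR water mean. It was lower in EGFR water than in Neo water by 0.32 on the log2 scale (log2 fold change -0.32, adjusted p = 0.00410), against the same EGFR water libraries. Both EGF calls held under every alternative. The difference between the lines was lost without EGFR water 1 (-0.31, adjusted p = 0.0524). From 3 h to 18 h the change was -0.04 (95% interval -0.12 to 0.04, adjusted p = 0.374). A transcript on the other strand, AC167363.2, covers 7.68% of the exon bases of Cdkn1a and has no row in the tables used.

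Cdkn1b encodes p27, which in many cells is set by protein degradation through SKP2 rather than by its mRNA (ENSMUSG00000003031, chr6:134920401-134925513, plus strand, mm10). It had 37.6 and 35.2 FPKM after 3 h of EGF and 37.5 and 38.0 FPKM after 18 h, against 37.7 and 36.9 FPKM in EGFR water, and the groups overlapped. The difference from EGFR water was -0.04 at 3 h (95% interval -0.17 to 0.10, adjusted p = 0.659) and 0.02 at 18 h (95% interval -0.12 to 0.15, adjusted p = 0.861). EGFR water and Neo water (37.7 and 42.6 FPKM) differed by -0.10 (95% interval -0.24 to 0.04, adjusted p = 0.331), and by -0.19 without Neo water 1 and -0.013 without Neo water 2. The sign at 3 h was positive after median-ratio rescaling, after rescaling to a common FPKM sum, and without EGF 3 h 2.

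Cdkn1c encodes p57, an imprinted gene expressed from the maternal copy (ENSMUSG00000037664, chr7:143458339-143461050, minus strand, mm10). It had 8.47 and 9.80 FPKM after 3 h of EGF and 8.72 and 8.46 FPKM after 18 h, against 10.3 and 9.39 FPKM in EGFR water. Neo water had 10.4 and 10.6 FPKM, above all others. The 18 h libraries were both below EGFR water, with a log2 fold change of -0.18 that did not pass the test (95% interval -0.34 to -0.02, unadjusted p = 0.0359, adjusted p = 0.0895), and 3 h overlapped it (-0.10, adjusted p = 0.3004). The gene Gm44732 on the other strand covers 30.7% of the exon bases of Cdkn1c, at 0.466 FPKM at 3 h and 0.405 FPKM at 18 h, against 0.793 FPKM in EGFR water. The sources used here do not say whether counting used strand, so the value of Cdkn1c is uncertain. The 3 h value was -0.0038 without EGF 3 h 1, -0.039 without EGFR water 1, -0.16 without EGFR water 2 and -0.19 (adjusted p = 0.0588) without EGF 3 h 2. The adjusted p at 18 h was 0.0412 without EGF 3 h 1 and 0.0411 without EGF 3 h 2.

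By count, 3 members rose and 2 fell of 7 at 3 h, where 31.5% of all 10874 genes tested passed, 11.8% upward and 19.7% downward. Libraries of the 2 groups did not overlap for 5 members, beside 70.5% of all genes. At 18 h the same 3 rose and the same 2 fell, where 31.9% of all genes passed, 13.2% upward and 18.7% downward, and 6 members did not overlap, beside 72.0% of all genes. From 3 h to 18 h, 2 members rose and none fell, against 33.7% of all genes, 17.7% upward and 16.0% downward. In that comparison 5 members did not overlap, beside 68.3% of all genes. Between EGFR water and Neo water 2 were higher and 1 lower in EGFR water, against 6.01% of all genes, 3.11% upward and 2.90% downward, and 5 did not overlap, beside 57.8%. The median log2 fold change of the 7 was -0.04 at 3 h and 0.02 at 18 h, beside -0.04 and -0.03 over all genes. With 1 library left out at a time, the members that rose numbered 2 to 3 at 3 h and 3 at 18 h, and those that fell 2 at 3 h and 0 to 3 at 18 h (0 without EGFR water 1 or EGF 18 h 1). With a common FPKM sum, 1 fell at 3 h and 0 at 18 h.

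**Figure D2:**
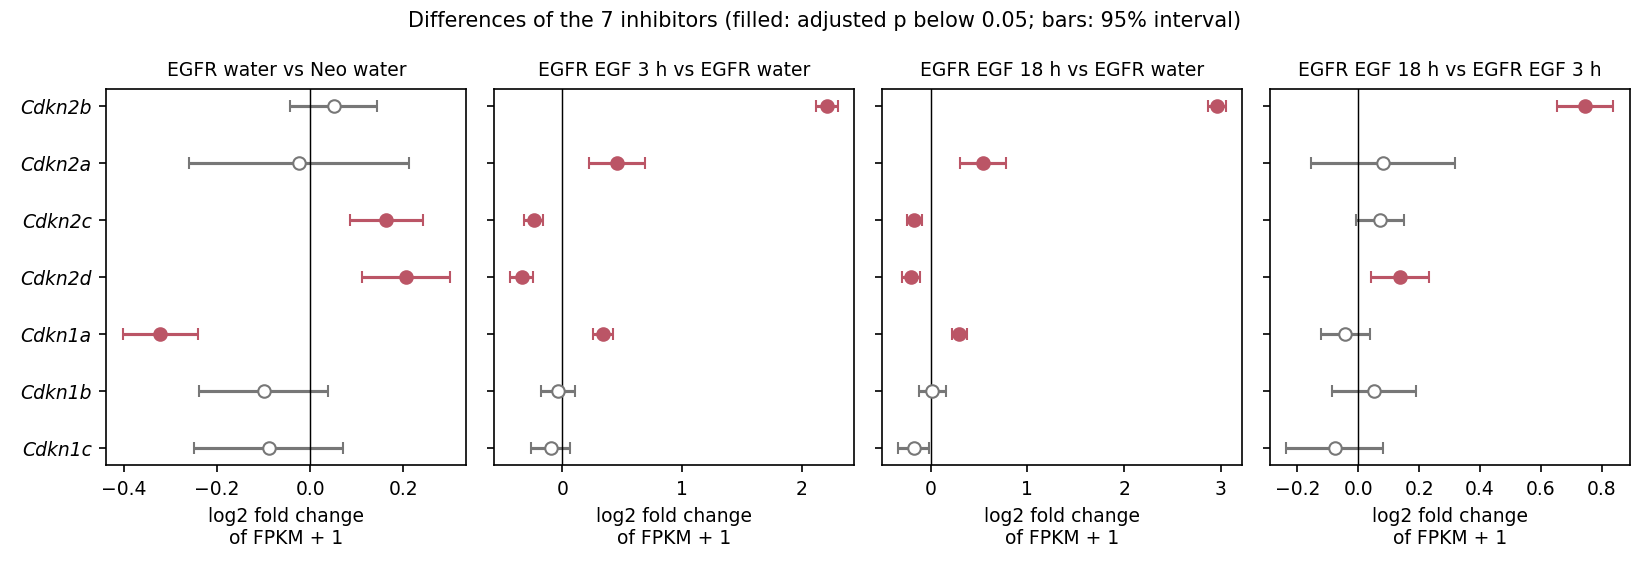
Log2 fold change of FPKM + 1 (horizontal axis) of the 7 inhibitors in the 4 comparisons, with 95% intervals as bars and filled points for adjusted p below 0.05. Cdkn2b stands at 2.21 and 2.95 in the panels of EGF against EGFR water, and the other 6 lie between -0.34 and 0.54 there.

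The summed level of each family shows what these changes came to. FPKM is scaled by length, so levels may be added across genes. The 4 INK4 genes summed to 171 ± 3.70 FPKM after 3 h of EGF and 199 ± 4.01 FPKM after 18 h, against 179 ± 4.58 FPKM in EGFR water and 158 ± 1.13 FPKM in Neo water (SD, n = 2 each). As deposited, the 2 libraries at 3 h were below EGFR water and the 2 at 18 h above it. With a common FPKM sum, a setting chosen after seeing the data, the sum was 180.3 ± 4.44 FPKM at 3 h and 203 ± 5.27 FPKM at 18 h, against 178 ± 5.81 FPKM in EGFR water, so the 3 h libraries overlapped EGFR water and the 18 h libraries did not. Cdkn2b made up 14.9 ± 0.157% of the INK4 sum at 3 h and 21.8 ± 0.454% at 18 h, against 2.64 ± 0.112% in EGFR water. Cdkn2c made up 59.5 ± 0.147% and 53.9 ± 0.0859%, against 67.5 ± 0.137%. The CIP/KIP sum was 64.6 ± 1.10 FPKM at 3 h and 64.8 ± 0.198 FPKM at 18 h, against 62.0 ± 1.001 FPKM in EGFR water and 69.5 ± 3.12 FPKM in Neo water. With a common FPKM sum it was 68.1 ± 0.959 FPKM at 3 h and 66.1 ± 0.586 FPKM at 18 h, against 61.8 ± 1.43 FPKM in EGFR water and 65.4 ± 7.45 FPKM in Neo water. Cdk4, the target of INK4 proteins that had a value, was at 345 ± 16.8 FPKM at 3 h and 334 ± 3.97 FPKM at 18 h, against 375 ± 4.69 FPKM in EGFR water. The INK4 sum per unit of Cdk4 was 0.497 ± 0.0135 at 3 h and 0.595 ± 0.0191 at 18 h (SD, n = 2 each). It was 0.476 ± 0.0182 in EGFR water, which the 3 h libraries overlapped, and 0.435 ± 0.0174 in Neo water. These sums are descriptions and were not tested.

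**Figure D3:**
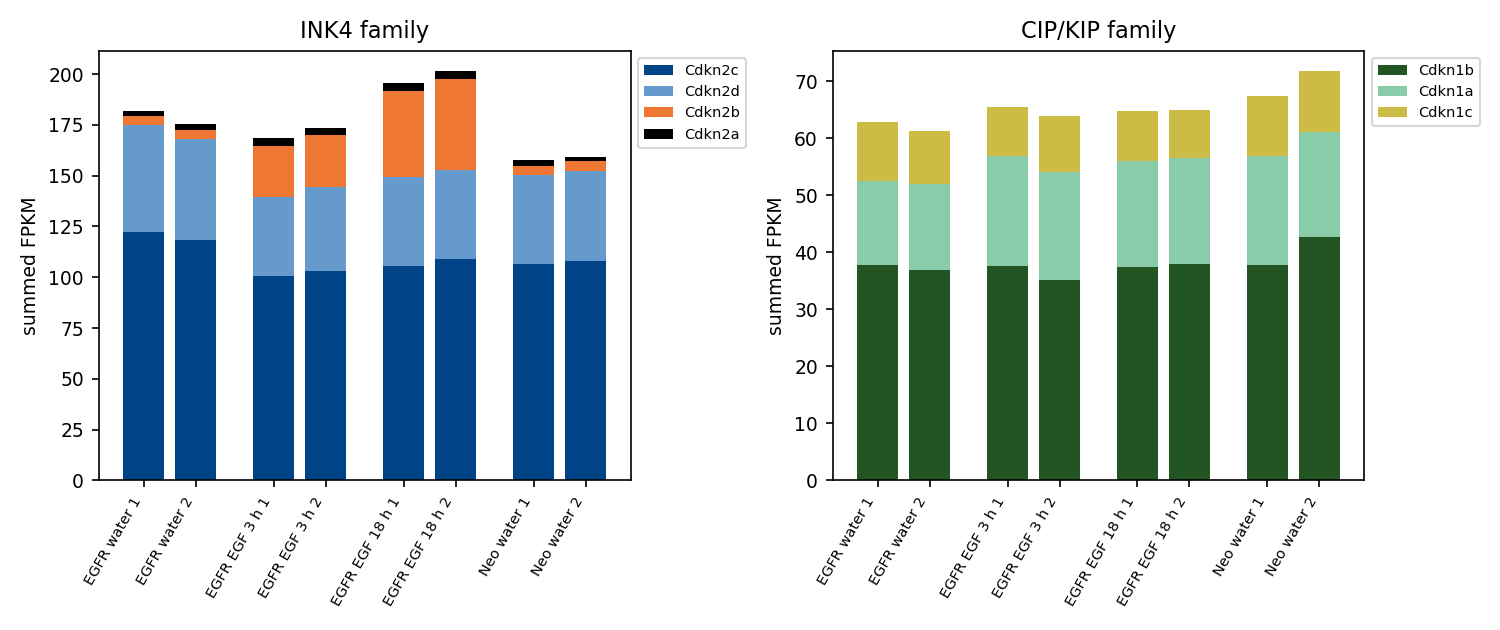
Stacked FPKM (vertical axis, from 0) of the INK4 genes and of the CIP/KIP genes in each of the 8 libraries, with 1 colour per gene. Cdkn2b grows from a thin layer in water libraries to 21.8% of the INK4 sum after 18 h of EGF, and Cdkn2c stays the thickest layer.

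The genes around Cdkn2b were read next. Within 500 kb, the tested genes were Cdkn2a, the long noncoding RNA Gm12606 and Mtap, the enzyme of methionine salvage, often lost together with this locus in human tumours. Gm12606 had a mean of 8.49 FPKM at 3 h and 8.69 FPKM at 18 h, against 5.74 FPKM in EGFR water, and rose by 0.49 (adjusted p = 6.50e-04) and 0.52 (adjusted p = 2.74e-04). Mtap, on the plus strand 125 kb away, had 17.8 and 16.3 FPKM, against 11.9 FPKM in EGFR water, and rose by 0.55 (adjusted p = 1.97e-04) and 0.42 (adjusted p = 2.96e-04). All 3 neighbours of Cdkn2b thus rose at both times, with smaller fold changes than Cdkn2b, beside 11.8% of all tested genes that rose at 3 h and 13.2% at 18 h. The 3 h call of Cdkn2a was lost without EGFR water 1 (adjusted p = 0.0846) or EGF 3 h 1 (adjusted p = 0.0728).

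**Figure D4:**
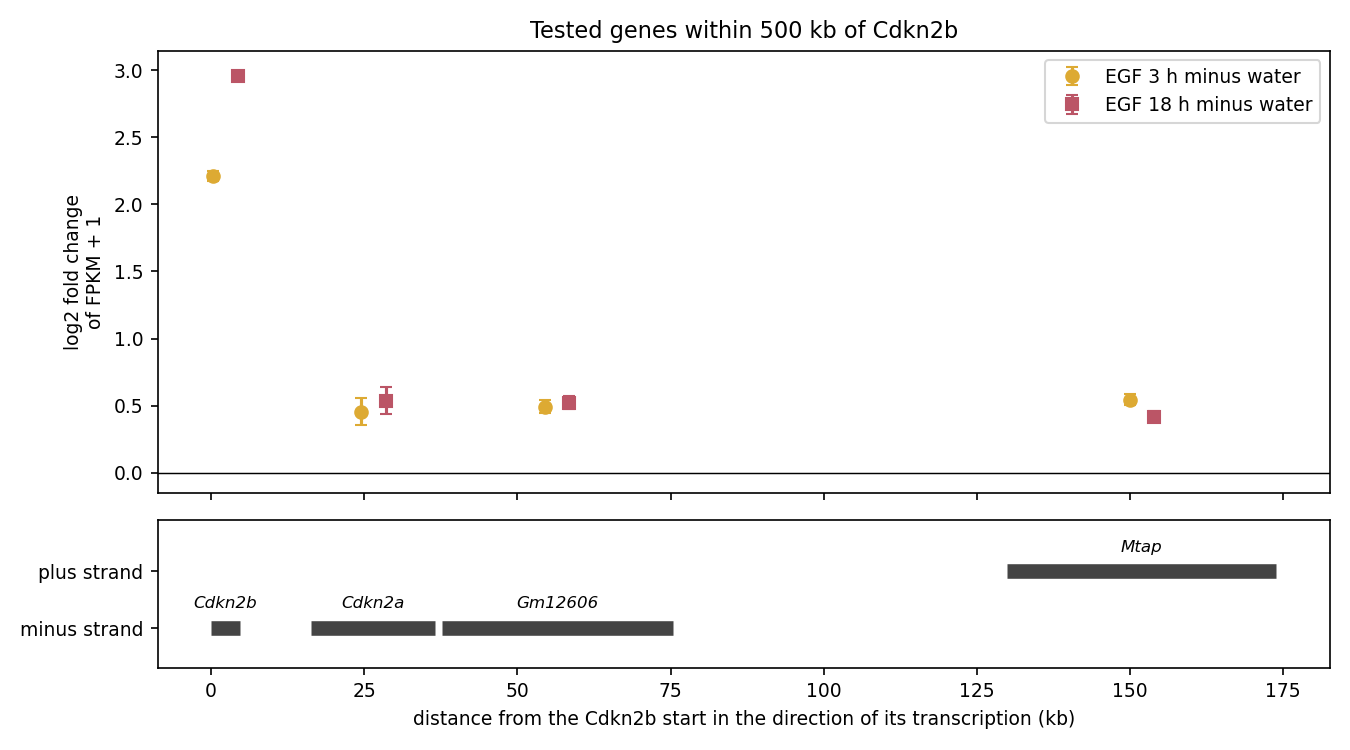
Log2 fold change of FPKM + 1 (upper panel) of the 4 tested genes of the Cdkn2b neighbourhood after 3 h and 18 h of EGF against EGFR water, with a gene map by strand below and distance from the Cdkn2b start in kb on the horizontal axis. Points of the 2 times are set 2 kb to either side of the gene centre so that they can be told apart. Cdkn2b reaches 2.95, and its 3 neighbours lie between 0.42 and 0.55.

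Genes whose pattern over the 8 libraries was most like that of a member were taken by the smallest root mean square (RMS) difference in centred log2(FPKM + 1), among 8155 or 8156 tested genes with a mean of at least 5 FPKM. For Cdkn2b the nearest was Etv5 (RMS 0.112), an ETS factor and a standard output of ERK signalling. Etv5 had a mean of 47.3 FPKM at 3 h and 70.6 FPKM at 18 h, against 9.86 FPKM in EGFR water, a rise of 2.15 and 2.72 beside 2.21 and 2.95 for Cdkn2b. Gprc5c (0.332), Stc1 (0.344), the phosphatase gene Dusp5 (0.488) and Enc1 (0.536) came next. Dusp5 had a mean of 107 FPKM at 3 h and 99.4 FPKM at 18 h, against 28.5 FPKM in EGFR water. For Cdkn2a the nearest were Pqlc1 (0.0413), Fndc3a (0.0678) and the EGR factor Egr2 (0.0690), and for Cdkn1a the microRNA-processing enzyme gene Drosha (0.0348), Zfp148 (0.0385) and St8sia3 (0.0399). Cdkn2d was nearest to the securin gene Pttg1 (0.0297), with Cdkn2c itself at the fifth place (0.0391). Cdkn2c was nearest to Fn3krp (0.0178) and Cdkn1b to Nap1l2 (0.0230), and Cdkn1c to the kinesin light chain gene Klc1 (0.0317).

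The other genes of the pathway were then counted from lists chosen with earlier results of these data known. All 18 h counts are set against water of 3 h. For these lists, as for the inhibitors, EGF at 18 h therefore cannot be told apart from time in culture. Over all genes tested, 11.8% rose and 19.7% fell at 3 h, and 13.2% rose and 18.7% fell at 18 h. Of 16 listed genes of ERK output and feedback, only 6 had values. All 6 rose at 3 h and at 18 h (median log2 fold change 1.21 and 1.28). Of 27 E2F targets of DNA replication, 24 fell and none rose at 18 h (20 to 25 with 1 library left out), with a median of -0.25 beside -0.03 over all genes, while at 3 h 6 fell and 2 rose. The 6 at 3 h became 2 without EGFR water 1 and 10 without EGF 3 h 2. Slbp, which binds histone mRNA, was at 67.3 ± 3.28 FPKM at 18 h, against 89.2 ± 0.0112 FPKM in EGFR water (-0.40, adjusted p = 3.66e-04). Rrm1, a subunit of ribonucleotide reductase, was at 93.5 ± 1.53 FPKM, against 123 ± 0.728 FPKM (-0.39, adjusted p = 8.64e-04). With a common FPKM sum, 16 of these 27 still fell at 18 h, but 1 at 3 h.

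Of 11 cyclins and kinases, 8 fell and none rose at 18 h (median -0.21), and 2 fell and 1 rose at 3 h (0 to 5 and 0 to 1 with 1 library left out). Cyclin E2, the partner of CDK2 at the start of S phase, fell to 74.6 ± 1.61 FPKM at 18 h, against 99.7 ± 3.84 FPKM in EGFR water (Ccne2, -0.41, adjusted p = 3.17e-04), and cyclin A2 to 67.5 ± 1.26 FPKM, against 86.2 ± 0.705 FPKM (Ccna2, -0.35, adjusted p = 3.96e-04). Without EGFR water 1 the count at 18 h was 4, and without EGF 18 h 2 it was 5. Of 19 mitosis genes, 11 fell and none rose at 18 h (median -0.15, 8 to 11 with 1 library left out), among them Bub1b of the spindle checkpoint (-0.41, adjusted p = 2.68e-04) and the spindle motor Kif11 (-0.36, adjusted p = 3.02e-04). Between EGFR water and Neo water, 7 of the 27 replication genes and 7 of the 19 mitosis genes were higher in EGFR water and none was lower. Over all genes tested, 3.11% were higher and 2.90% lower there. That comparison again shares the EGFR water libraries, and the counts were 0 to 1 without either EGFR water library, 1 to 4 without a Neo water library and 4 to 5 without an EGF 18 h library. Of 15 pocket protein and E2F genes, 7 fell at 18 h, among them the repressor E2f8 (-0.36, adjusted p = 0.00394) and E2f2 (-0.27, adjusted p = 0.00231), and this count was 3 without EGFR water 1 and 4 without EGFR water 2, EGF 18 h 1 or EGF 18 h 2.

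**Figure D5:**
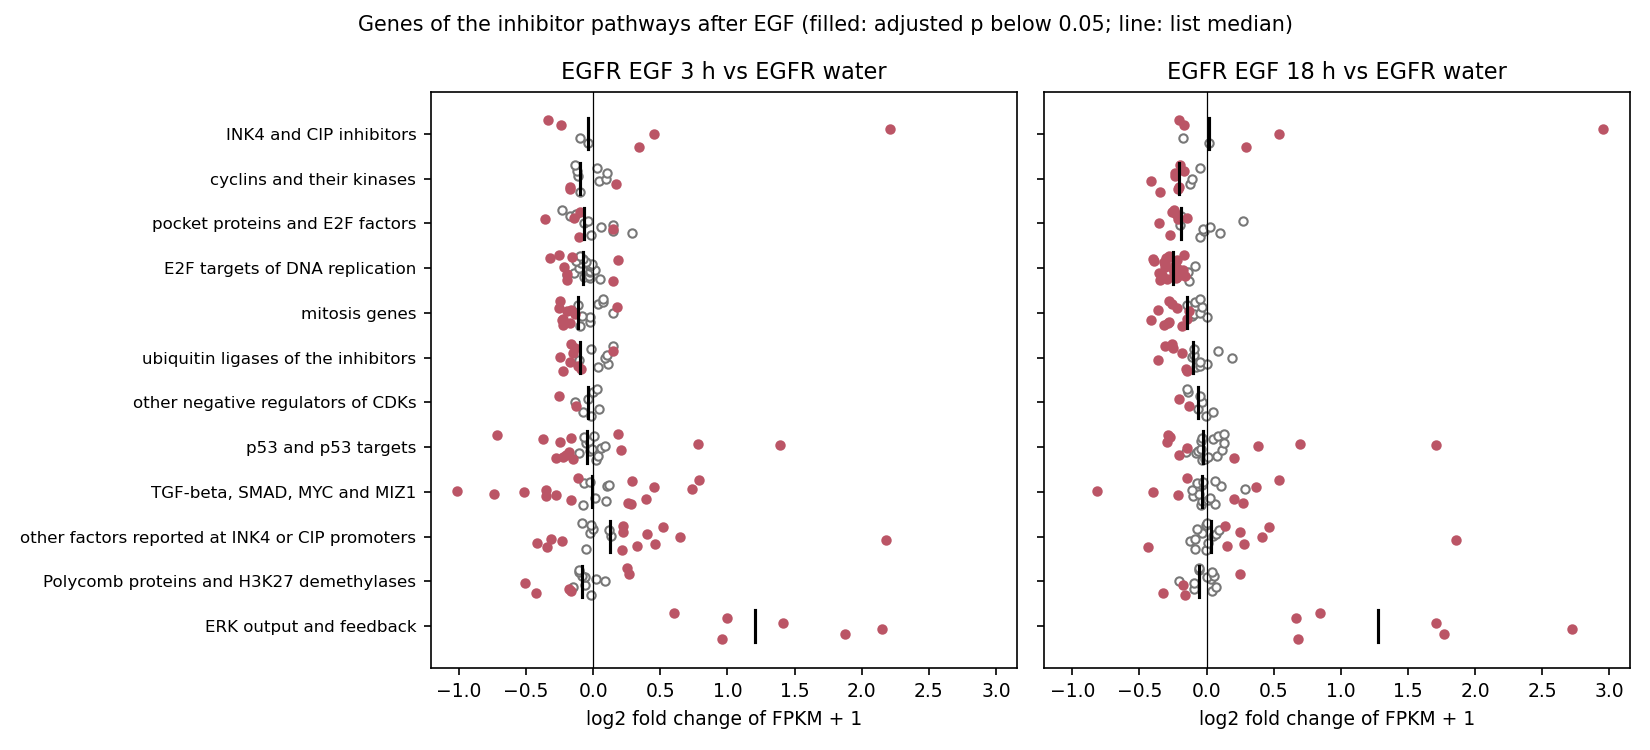
Log2 fold change of FPKM + 1 (horizontal axis) of each tested gene of the pathway lists at 3 h and at 18 h of EGF against EGFR water, with filled points for adjusted p below 0.05 and a line at the list median. The replication genes lie left of 0 at 18 h with a median of -0.25, and the 6 ERK output genes lie right of 0 at both times.

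Among 24 genes of p53 and its targets, 4 rose and 9 fell at 3 h, and 4 rose and 5 fell at 18 h. The largest changes were those of the polo-like kinase genes Plk2, at 47.2 ± 1.43 FPKM at 3 h and 59.2 ± 0.346 FPKM at 18 h, against 17.4 ± 0.0250 FPKM in EGFR water (1.39 and 1.71, adjusted p = 1.34e-06 and 2.30e-07), and Plk3 (0.78 and 0.70, adjusted p = 2.42e-04 and 1.92e-04). Over all genes tested, 11.8% rose and 19.7% fell at 3 h, and 13.2% rose and 18.7% fell at 18 h. The median of the list was -0.04 at 3 h and -0.02 at 18 h. Without EGFR water 1 the genes that rose at 3 h were 2 and those that fell were 5, and without EGF 3 h 1 those that fell were also 5. At 18 h those that fell were 3 without EGFR water 1 or EGF 18 h 1.

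Of 22 genes of TGF-beta, SMAD, MYC and MIZ1, 7 rose and 8 fell at 3 h, and 4 rose and 4 fell at 18 h. These counts, and those of the promoter factors below, stand beside 11.8% of all genes upward and 19.7% downward at 3 h. At 18 h the shares were 13.2% and 18.7%. Mycl, a MYC relative, fell to 4.201 ± 0.192 FPKM at 3 h and 4.95 ± 0.237 FPKM at 18 h, against 9.49 ± 0.248 FPKM in EGFR water (-1.01 and -0.82, adjusted p = 5.28e-05 and 5.46e-05). Tgif1, a repressor of SMAD signalling, rose by 0.79 and 0.54 (adjusted p = 3.77e-04 and 0.00101). The genes that fell at 3 h numbered 4 without EGFR water 2 and 5 without EGF 3 h 1. Of 20 other factors reported at INK4 or CIP promoters, 9 rose and 4 fell at 3 h, and 7 rose and 1 fell at 18 h. The repressor Hes1, a target of Notch signalling, rose to 15.5 ± 0.974 FPKM at 3 h and 12.3 ± 0.256 FPKM at 18 h, against 2.66 ± 0.367 FPKM in EGFR water (2.18 and 1.86, adjusted p = 2.08e-05 and 2.25e-05). The TGF-beta-inducible factor Klf10 rose by 0.64 at 3 h (adjusted p = 2.41e-04). Leaving out either EGFR water library or either EGF 18 h library left 2 to 4 that rose at 18 h, against 7.

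Polycomb proteins silence the Cdkn2a and Cdkn2b locus in many cells, and H3K27 demethylases remove their mark. Of 15 genes of either kind, 2 rose and 4 fell at 3 h, and 1 rose and 3 fell at 18 h. These counts, and those of the lists below, stand beside 11.8% of all genes upward and 19.7% downward at 3 h. At 18 h the shares were 13.2% and 18.7%. Ezh1 fell to 6.72 ± 0.0601 FPKM at 3 h, against 10.0 ± 0.409 FPKM in EGFR water (-0.51, adjusted p = 4.49e-04), and Cbx2 fell by 0.43 at 3 h and 0.32 at 18 h (adjusted p = 0.00125 and 0.00275). At 3 h, 1 rose without EGFR water 1, EGFR water 2 or EGF 3 h 1. The genes that fell numbered 2 at 3 h without EGF 3 h 1, and 1 at 18 h without EGFR water 2 or EGF 18 h 2. Of 16 genes of the ubiquitin ligases that act on the inhibitors, 8 fell at 3 h and 7 at 18 h, and 1 rose at 3 h. Dtl, the substrate receptor that targets p21, fell to 18.3 ± 0.00354 FPKM at 18 h, against 23.8 ± 0.921 FPKM in EGFR water (-0.36, adjusted p = 4.68e-04). Skp2, the receptor for p27, fell by 0.31 at 18 h (adjusted p = 0.0136), a call lost without EGFR water 1 (adjusted p = 0.0742) or EGF 18 h 1 (adjusted p = 0.0795). With 1 library left out, the ligase genes that fell numbered 1 to 6 at 3 h and 3 to 7 at 18 h. Of 9 other negative regulators of CDKs, 2 fell and none rose at each time, and 0 to 1 fell at 3 h and 1 to 2 at 18 h with 1 library left out. With a common FPKM sum, the genes that fell at 18 h numbered 3 of the cyclins and kinases, 3 of the pocket protein and E2F genes, 6 of the mitosis genes, 2 of the p53 genes, 1 of the Polycomb and demethylase genes, 3 of the ligase genes and 0 of the other negative regulators. At 3 h they numbered 3 of the p53 genes, 2 of the Polycomb and demethylase genes, and 0 of the cyclins and kinases, of the ligase genes and of the other negative regulators. Of the other promoter factors, 4 rose at 18 h under that scaling.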

How the data were processed

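The authors deposited 1 table of FPKM per library on mm10, analysed as deposited. Per the submitters' processing notes, Trimmomatic 0.22, TopHat2 2.0.8, HTSeq 0.5.4 and DESeq were used. The sources used here give neither the program that made FPKM nor strandedness. Per the labels' protocols, column-extracted RNA was made into cDNA with Superscript III for Illumina sequencing. FPKM divides by length and library total, so a few abundant transcripts move all others.

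Groups came from the sample titles. The 10874 loci that reached 1 FPKM in 2 or more libraries were tested with limma-trend 3.58.1 in R 4.3.3 on log2(FPKM + 1), two-sided, with all 4 groups in 1 fit (4 residual and 3.29 prior degrees of freedom), Benjamini-Hochberg adjustment over all genes within a comparison and a threshold of 0.05. The fit was tested on simulated data. Whole reads were only approximate (48.1 to 82.8% of low values within 0.1 step), so no count test was run. Starts were read as 0-based, since start plus 1 and end matched GENCODE M21 for 9829 of 12129 loci. The members and gene lists were chosen with earlier results of these data known. Named in each list and comparison were at most 2 genes that passed with no overlap between groups, a mean of at least 5 FPKM and the largest change, and within 500 kb the tested neighbours. Genes named for likeness were up to 5 per member. Values of Cdk4 were printed as the target of the INK4 proteins. Alternatives were other pseudocounts, filters and scalings, fits without trend or with fewer groups or a replicate block, and each library left out.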

Additional observations from a re-analysis of the deposited data

Results flagged for a closer look

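After EGF, Cdkn2b was higher at 18 h than at 3 h by 0.74 on the log2(FPKM + 1) scale (43.3 ± 1.78 against 25.4 ± 0.282 FPKM, SD, n = 2 each, adjusted p = 1.09e-04 by limma), with both 18 h libraries above both 3 h libraries. Both times were set against the same EGFR water libraries of 3 h, which cancel in this difference. No water sample of 18 h was analysed, so the length of EGF treatment cannot be told apart from time in culture.

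Cdkn2d also differed between the times, with the same limit, being higher at 18 h than at 3 h by 0.14 (44.2 ± 0.146 against 40.1 ± 1.48 FPKM, SD, n = 2 each, adjusted p = 0.0362), with both 18 h libraries above both 3 h libraries. This call was lost with a common FPKM sum (0.091, adjusted p = 0.369), with only the 2 groups (adjusted p = 0.0625), with the replicate block (adjusted p = 0.0577), without the trend (adjusted p = 0.0501), and without EGF 3 h 1 (adjusted p = 0.152), EGF 18 h 1 (adjusted p = 0.123) or EGF 18 h 2 (adjusted p = 0.132).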

How the results depend on the processing

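Of the 28 differences of the 7 members, the rises of Cdkn2b and Cdkn1a with EGF, the 18 h rise of Cdkn2a and the 3 h fall of Cdkn2d kept direction and call under every alternative that tested them. Cdkn2a, under 5 FPKM in every library, was not tested with the filter at 5 FPKM.

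Rescaling to a common FPKM sum gave, for EGFR water against Neo water, Cdkn2c 0.25 (adjusted p = 0.0657), Cdkn2d 0.29 (adjusted p = 0.0516), Cdkn2a 0.038 with the sign turned, and 412 genes called. At 3 h it gave Cdkn1b 0.044 with the sign turned, Cdkn2c -0.16 and 1786 genes. At 18 h it gave Cdkn2c -0.13, Cdkn2d -0.17 and 1894 genes, and for 18 h against 3 h Cdkn2d 0.091 (adjusted p = 0.369) and 2193 genes. Median-ratio rescaling turned Cdkn1b at 3 h to 0.0031. Genes higher were 37.5% of calls at 3 h (53.5% by median ratio, 75.4% by common sum), 41.4% at 18 h (53.3%, 62.8%), 51.8% for EGFR water against Neo water (43.8%, 75.0%) and 52.5% for 18 h against 3 h (50.5%, 39.4%).

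With only the 2 groups of a comparison, Cdkn2c was 0.16 (adjusted p = 0.0721) and Cdkn2d 0.21 (adjusted p = 0.0730) in EGFR water against Neo water, with 237 genes called, and Cdkn2d was 0.14 (adjusted p = 0.0625) at 18 h against 3 h. Without the trend, Cdkn2c between the lines was 0.16 (adjusted p = 0.0555) and Cdkn2d between the times 0.14 (adjusted p = 0.0501). The labels do not say whether replicate numbers pair the libraries. Replicate-1 deviations correlated by -0.17 to 0.31 across genes, which with 2 libraries per group cannot decide it. With the replicate block, 382 genes were called between the lines, against 653, Cdkn2c was 0.16 (adjusted p = 0.0635), Cdkn2d 0.21 (adjusted p = 0.0600), and Cdkn2d between the times 0.14 (adjusted p = 0.0577).

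With 1 library left out, values for EGFR water against Neo water ran from 0.14 to 0.19 for Cdkn2c, 0.17 to 0.25 for Cdkn2d, -0.35 to -0.30 for Cdkn1a and -0.16 to 0.11 for Cdkn2a, and 86 to 676 genes were called. Cdkn2a was 0.11 without Neo water 1 and 0.07 without EGFR water 1. At 3 h they ran from 0.37 to 0.54 for Cdkn2a and -0.082 to 0.0096 for Cdkn1b (0.0096 without EGF 3 h 2), with 1432 to 3352 genes. At 18 h they ran from -0.19 to -0.14 for Cdkn2c, -0.24 to -0.16 for Cdkn2d and -0.23 to -0.12 for Cdkn1c, with 1790 to 3601 genes. For 18 h against 3 h they ran from 0.10 to 0.17 for Cdkn2d and -0.17 to 0.017 for Cdkn1c (0.017 without EGF 3 h 2), with 1863 to 3638 genes. The calls of Cdkn2c and Cdkn2d between the lines were each lost in 6 of the 8 fits with a library left out. Fewer samples enter these fits, and the other causes were not tested. The fit with no filter still required a value in at least 2 libraries.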

Other observations

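Around the other members, tested genes within 500 kb moved in both directions. Beside Cdkn1c, the potassium channel gene Kcnq1 had a mean of 2.84 FPKM after 18 h of EGF, against 5.23 FPKM in EGFR water (-0.70, adjusted p = 9.93e-04). Beside Cdkn1a, whose own level rose, the kinase gene Pim1 had 5.84 FPKM at 3 h, against 8.13 FPKM in EGFR water (-0.42, adjusted p = 0.00157), the splicing factor gene Srsf3 had 167 FPKM at 18 h, against 205 FPKM (-0.29, adjusted p = 0.0170), and no tested gene within 500 kb rose at either time. Beside Cdkn2c, Faf1 had 48.9 FPKM at 3 h and 48.1 FPKM at 18 h, against 48.2 FPKM in EGFR water.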
